A study of Mus musculus with 9 samples.

Results

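The genes described here are 36 glutamate receptor and postsynaptic density genes, chosen by name from the 52636 rows of a gene count table. They encode 4 AMPA receptor subunits, 7 NMDA receptor subunits, 5 kainate receptor subunits, 1 delta receptor subunit, 7 metabotropic glutamate receptors, 10 scaffold proteins of the postsynaptic density and 2 subunits of the kinase CaMKII. All 36 were found in the table and all 36 passed the filter on low counts. RNA was sequenced from cells sorted from the nucleus accumbens, a ventral part of the striatum, after staining for ChAT, the acetylcholine-producing enzyme by which cholinergic interneurons are recognised. The 9 libraries came from male wild-type C57BL/6 mice, 3 from drug-naive mice (naive), 3 titled RES and 3 titled SUS. Mice of RES and SUS had earned cocaine infusions, at most 40 on fixed ratio 1, before 10 days with a progressive ratio session of 23 h each at 1.2 mg/kg per infusion, where the price in nosepokes went up with each infusion. Mice were perfused under ketamine and xylazine on day 3 from the last session, and the dissociation medium, shared by all groups, contained the NMDA receptor blocker DL-APV. Each condition pooled punches from 2 to 3 mice. Whether the libraries of a group had separate pools is not given, so p-values here speak of spread among libraries that may be technical replicates. The age of the mice is not given in the labels.

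The titles RES and SUS conflict with the behavioural field of the labels, which calls the RES libraries susceptible and the SUS libraries resilient. Groups follow the titles here, and no direction below is read as one of susceptibility or resilience. The study asked how the sorted cells differ between mice of the RES and SUS classes and drug-naive mice.

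At an excitatory synapse, glutamate opens AMPA receptors, which carry the fast current, and NMDA receptors, which admit calcium when the membrane is already depolarised. Scaffold proteins of the Dlg, Dlgap, Shank and Homer families hold these channels and the metabotropic receptors in place, and calcium acts on CaMKII anchored among them. In the accumbens, glutamate reaches medium spiny neurons, the projection neurons that make up most of its cells, and the sparse cholinergic interneurons, and AMPA receptors of medium spiny neurons are known to be remodelled after withdrawal from cocaine.

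Total counts ran from 4471675 to 11155730 per library. Levels are given as counts per kb of merged exons divided by the same density over 1092 olfactory receptor genes in the library, which are taken as background, so 1 means no more signal per length than an olfactory receptor gene. A list of 49 genes of liver, muscle, skin, gut, kidney, eye and germ line gave a median of 1.57 to 2.07 times background, so values near 2 were read as near background too. RES replicate 3 stood apart in that 50.4% of its nuclear counts lay at background density, against 23.8% to 37.3% in the other 8 libraries. Of 10 cholinergic marker genes, 0 exceeded 3 times background in at least 5 of the 9 libraries. Chat itself stood between 0.877 and 2.5 in 8 libraries and at 7.87 in SUS replicate 2. By contrast 11 of 15 medium spiny neuron markers, 8 of 10 pan-neuronal, 11 of 12 astrocyte and 11 of 12 microglial markers exceeded it, and 0 of 8 markers of cortical glutamatergic neurons did. The libraries are therefore called by their titles and not by the sorted cell type.

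Before the values, the 250 bases upstream of the RefSeq start of 3 of these genes are shown. Camk2b is one of the highest genes of these libraries. Grin2c and Grm3 stood apart from the others in some of the libraries set side by side below. Capitals mark GC boxes, the letters GGGCGG on either strand with overlapping matches counted.
Camk2b: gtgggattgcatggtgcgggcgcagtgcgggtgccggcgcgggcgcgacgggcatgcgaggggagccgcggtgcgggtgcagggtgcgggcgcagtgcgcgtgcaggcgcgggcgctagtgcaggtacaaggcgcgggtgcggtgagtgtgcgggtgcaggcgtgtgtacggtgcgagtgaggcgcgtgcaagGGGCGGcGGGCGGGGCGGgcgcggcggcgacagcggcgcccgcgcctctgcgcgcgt
Grin2c: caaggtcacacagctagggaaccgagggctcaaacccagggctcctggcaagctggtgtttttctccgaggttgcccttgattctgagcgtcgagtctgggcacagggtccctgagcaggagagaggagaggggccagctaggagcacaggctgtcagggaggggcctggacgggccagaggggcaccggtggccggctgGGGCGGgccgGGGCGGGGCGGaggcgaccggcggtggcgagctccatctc
Grm3: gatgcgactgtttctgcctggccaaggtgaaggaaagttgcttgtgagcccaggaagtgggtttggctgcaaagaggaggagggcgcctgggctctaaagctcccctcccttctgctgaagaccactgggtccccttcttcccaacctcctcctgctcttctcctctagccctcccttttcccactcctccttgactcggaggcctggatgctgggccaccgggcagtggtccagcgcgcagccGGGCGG
In the build GRCm38.p6 all 3 windows lie on the minus strand, Camk2b at chr11:6065749-6065998, Grin2c at chr11:115267244-115267493 and Grm3 at chr5:9725353-9725602, and they are printed 5′ to 3′ along the gene. For each gene the first window listed by RefSeq was taken. That of Camk2b lies inside the span of the gene used for the counts (5969644 to 6066362), which begins further upstream. Their GC contents were 78.4%, 68.8% and 62.4%, with 3, 3 and 1 GC boxes. RefSeq listed 33 windows for 23 of the 36 genes, with a median GC content of 62.0% against 52.4% over all 32851 windows. A GC box was found in 42.4% of the 33 windows and in 32.7% of all. TATAAA was found in 9.09% against 12.4%, and TGACG, the core of the site bound by CREB, in 12.1% against 17.8%, both strands searched. These matches describe the letters of the windows only.

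Of the 36 genes, 24 (66.7%) exceeded 3 times background in at least 5 of the 9 libraries, a level reached by 24.6% of 21883 protein-coding nuclear genes and by 8.16% of the genes of other tissues. The 12 that missed this limit were Gria3, Grin2a, Grin2d, Grin3a, Grin3b, Grik1, Grm2, Grm6, Grm8, Homer2, Homer3 and Dlgap1, of which Gria3 and Grin2a exceeded 3 times background in 4 of the 9 libraries. The highest means over 9 libraries were those of Gria1 (21.5 times background), Camk2b (17.7), Grm3 (17.7), Camk2a (13.6), Grik5 (12.0) and Grm7 (11.5), and the lowest were those of Homer2 (0.996) and Grm2 (1.09). With 5 times background as the limit 14 genes were above it. Per length of the longest coding transcript, an alternative chosen after the data were seen, 29 genes were above and Camk2b ranked before Gria1.

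**Figure D1:**
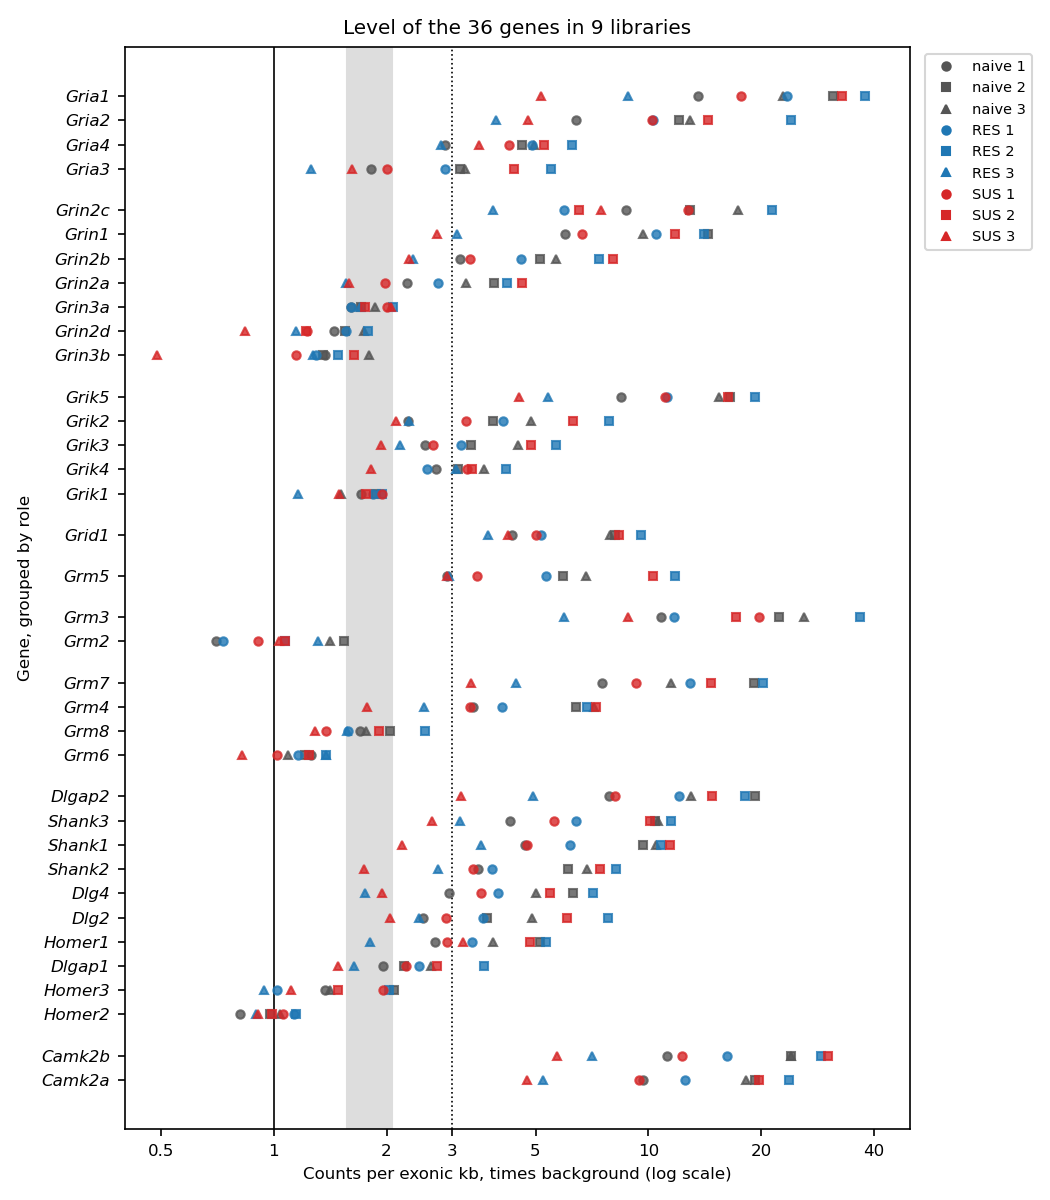
Counts per exonic kb of each gene, divided by the background density of the same library, on a log axis, for 9 libraries (grey naive, blue RES, red SUS; circle, square and triangle are replicates 1, 2 and 3). The solid line is background, the dotted line 3 times background and the grey band the median of 49 genes of other tissues, 1.57 to 2.07. In most genes the blue and red squares lie to the right and the red and blue triangles to the left.

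AMPA receptors are tetramers whose calcium permeability depends on GluA2. Gria1, which encodes GluA1 (chromosome 11, 57011387 to 57330244), stood at 13.6, 31.2 and 22.9 times background in the naive libraries, 23.5, 38.0 and 8.84 in RES and 17.7, 33.0 and 5.17 in SUS, replicates 1 to 3 in that order. Gria2, which encodes GluA2 (chromosome 3, 80681450 to 80802835), stood at 6.42, 12.1 and 12.9 times background in the naive libraries, 10.3, 24 and 3.93 in RES and 10.2, 14.4 and 4.77 in SUS. In both genes each group spanned a wide range and the 3 groups overlapped. Gria4, which encodes GluA4, ran from 2.79 to 6.24, and Gria3, which encodes GluA3, from 1.26 to 5.51. Of the summed AMPA subunit density above background, Gria1 made up 56.3% on average over libraries (range 37.6% to 64.2%). Gria2 made up 27.8%, Gria4 11.1% and Gria3 4.77%. Per length of the longest transcript, with background not subtracted, the shares were 45.1%, 32.3%, 11.5% and 11.1% in that order. The Gria1 share above background was 59.9% ± 4.79 (SD, n = 3) in naive, 58.0% ± 4.37 in RES and 51.1% ± 11.9 in SUS. In SUS, replicate 3 held the lowest value.

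NMDA receptors join GluN1, which every receptor needs, with GluN2 subunits that set their kinetics or with GluN3. Grin1, for GluN1, ran from 2.73 in SUS replicate 3 to 14.4 in naive replicate 2. Grin2c, for GluN2C, the subunit best known from cerebellar granule cells and also found in astrocytes, had the highest mean of the NMDA subunit genes per merged exonic length, at 8.74, 12.9 and 17.4 times background in the naive libraries, 5.96, 21.4 and 3.85 in RES and 12.8, 6.52 and 7.46 in SUS. Its share of the summed NMDA subunit density above background was 40.1% on average, with a range of 19.3% to 58.0%, beside 30.2% for Grin1. Per length of the longest transcript, with background not subtracted, the order turned, with 24.5% for Grin2c and 41.9% for Grin1. Grin2b, for GluN2B, stood at 3.15, 5.15 and 5.68 times background in the naive libraries, 4.58, 7.39 and 2.36 in RES and 3.35, 8.04 and 2.3 in SUS. Grin2a, for GluN2A, stood at 2.27, 3.88 and 3.27 times background in the naive libraries, 2.74, 4.19 and 1.56 in RES and 1.98, 4.61 and 1.59 in SUS, and exceeded 3 times background in 4 of 9 libraries. So Grin2b was above Grin2a per length in all 9 libraries. Grin2d, for GluN2D, known from interneurons, ran from 0.837 to 1.78 and lay below the median of the genes of other tissues in every library. The GluN3 genes Grin3a (1.61 to 2.08) and Grin3b (0.488 to 1.80) were also near background. Of the Grin3b exonic bases 32.13% lie across from Tmem259 on the other strand, and 13.47% of those of Grin1 across from Grin1os. The strand setting of the counting is not given, so reads of such pairs cannot be told apart.

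Kainate receptors contain GluK1, GluK2 or GluK3, to which GluK4 or GluK5 add high affinity. Grik5, for GluK5, led this family at 8.44, 16.5 and 15.4 times background in the naive libraries, 11.2, 19.3 and 5.41 in RES and 11.1, 16.3 and 4.51 in SUS, and took 56.3% of its density above background. Grik2 (2.12 to 7.85), Grik3 (1.93 to 5.68) and Grik4 (1.82 to 4.17) were above background in 5 or 6 libraries, and Grik1 (1.16 to 1.95) in 0. Grid1, for GluD1, a receptor that binds cerebellin and helps to organise synapses, ran from 3.73 to 9.57 and was above background in all 9.

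Metabotropic receptors act through G proteins, group I through Gq and groups II and III through Gi. Grm5, for mGlu5 of group I, the receptor tied to Homer and Shank, stood at 2.9, 5.93 and 6.82 times background in the naive libraries, 5.34, 11.8 and 2.94 in RES and 3.48, 10.3 and 2.9 in SUS. Grm3, for mGlu3 of group II, which neurons and astrocytes both use, stood at 10.8, 22.4 and 26.1 times background in the naive libraries, 11.7, 36.7 and 5.97 in RES and 19.8, 17.1 and 8.81 in SUS. Its group II partner Grm2 ran from 0.700 to 1.54. In group III, which sits mainly on nerve terminals, Grm7 stood at 7.53, 19.1 and 11.5 times background in the naive libraries, 12.9, 20.3 and 4.43 in RES and 9.25, 14.7 and 3.36 in SUS. Grm4 ran from 1.77 to 7.23, while Grm8 (1.29 to 2.54) and Grm6 (0.821 to 1.38), a gene of retinal bipolar cells, stayed under 3 times background in every library.

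Among scaffold genes, Dlgap2, which links Dlg proteins to Shank, stood at 7.85, 19.3 and 13.0 times background in the naive libraries, 12.1, 18.1 and 4.92 in RES and 8.14, 14.8 and 3.16 in SUS and took 27.3% of the summed scaffold density above background. Shank3, whose protein joins Dlgap to Homer and actin, stood at 4.28, 10.4 and 10.6 times background in the naive libraries, 6.43, 11.5 and 3.14 in RES and 5.59, 10.1 and 2.65 in SUS. Shank2 stood at 3.52, 6.1 and 6.86 times background in the naive libraries, 3.83, 8.2 and 2.75 in RES and 3.41, 7.45 and 1.74 in SUS. Shank1 ran from 2.20 to 11.4, so all 3 Shank genes were lowest in SUS replicate 3. Dlg4, for the main Dlg scaffold of AMPA and NMDA receptors, stood at 2.93, 6.3 and 5.0 times background in the naive libraries, 3.98, 7.13 and 1.75 in RES and 3.58, 5.46 and 1.95 in SUS. Its relative Dlg2 stood at 2.5, 3.72 and 4.9 times background in the naive libraries, 3.62, 7.79 and 2.44 in RES and 2.88, 6.06 and 2.04 in SUS. Homer1, which binds mGlu5, ran from 1.81 to 5.34, and Dlgap1 from 1.48 to 3.64. Homer2 (0.814 to 1.15) and Homer3 (0.940 to 2.10) did not exceed 3 times background in any library, and 25.41% of Homer3 exonic bases lie across from Ddx49.

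CaMKII is built of alpha and beta subunits, of which beta binds actin. Camk2b (chromosome 11, 5969644 to 6066362) stood at 11.2, 24.1 and 24.1 times background in the naive libraries, 16.2, 28.9 and 7.09 in RES and 12.3, 30.1 and 5.72 in SUS. Camk2a (chromosome 18, 60925618 to 60988152) stood at 9.7, 19.3 and 18.2 times background in the naive libraries, 12.5, 23.7 and 5.23 in RES and 9.43, 19.8 and 4.75 in SUS. Camk2b was above Camk2a per length in all 9 libraries.

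The level of these genes differed widely between libraries of a group. The median of the 36 was 2.89, 5.14 and 4.97 times background in the naive libraries, 4.03, 7.26 and 2.48 in RES and 3.35, 6.18 and 2.09 in SUS, so every group held both high and low libraries. Of the 24 genes above background, 18 were highest in RES replicate 2, 4 in SUS replicate 2 and 2 in naive replicate 2. RES replicate 2 and SUS replicate 2 are thus the libraries richest in these genes. SUS replicate 3 was lowest for 16 of the 24, RES replicate 3 for 7 and naive replicate 1 for 1. Markers moved with this: the median of the medium spiny neuron list was 3.66, 7.82 and 7.65 for naive, 5.47, 9.09 and 2.79 for RES and 3.87, 9.75 and 2.89 for SUS. Divided by it, the median of the 36 genes lay between 0.634 and 0.888 in all 9 libraries. Divided by the pan-neuronal list it ran from 0.587 to 0.96, and divided by the astrocyte list from 0.283 to 0.735. These medians keep the background. In RES replicate 3 and SUS replicate 3 the median of the 36 genes (2.48 and 2.09) was near that of genes of other tissues (1.82 and 1.65). Background thus makes up much of both sides of the ratio there. In RNA of sorted bulk cells, fewer cells of a type and less RNA per cell cannot be told apart.

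**Figure D2:**
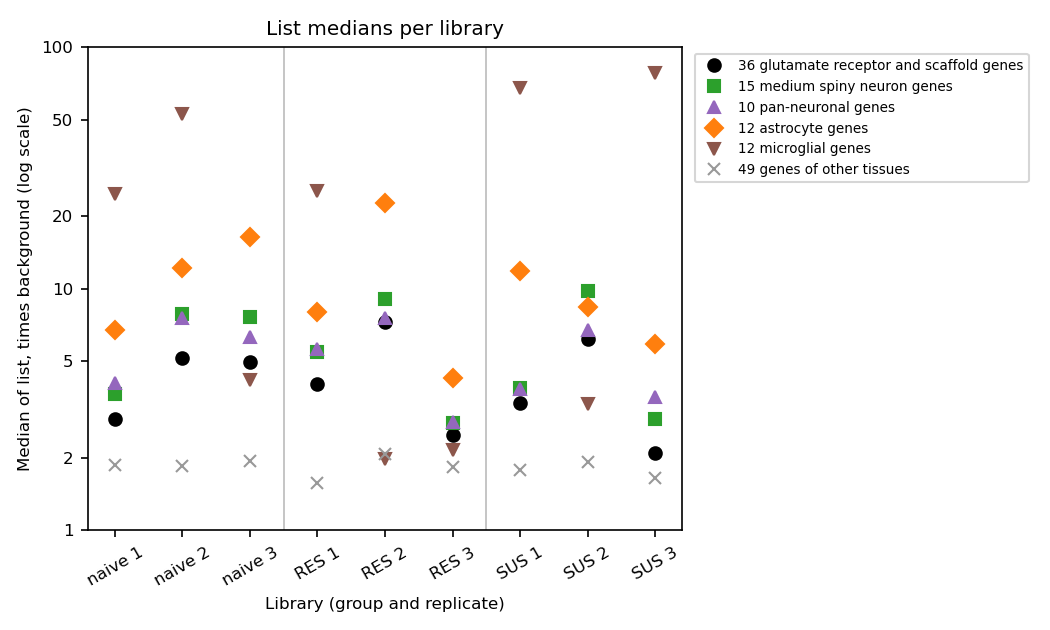
Median level, in times background on a log axis, of the 36 genes and of 5 marker or reference lists in each of the 9 libraries. Black circles and green squares run in parallel, with the 36 genes at 0.634 to 0.888 of the medium spiny neuron list, while the microglial list ranges from 1.98 to 78.2.

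In 2 pairs of libraries, Grm3 and Grin2c departed from this common course. RES replicate 2 and SUS replicate 2 had alike medium spiny neuron medians (9.09 and 9.75) but unlike astrocyte medians (22.6 and 8.41). Grin2c stood at 21.4 against 6.52 in them, a ratio of 3.29, and Grm3 at 36.7 against 17.1, a ratio of 2.14. Over the other 22 genes above background the same ratio had a median of 1.17 and ran from 0.919 (Grin2b) to 1.66 (Gria2). RES replicate 1 and SUS replicate 1 gave the reverse order, with astrocyte medians of 8.02 and 11.8. Their medium spiny neuron medians were 5.47 and 3.87, so these libraries were less alike in that list. There the ratio was 0.466 for Grin2c and 0.594 for Grm3, and 1.23 at the median of the other 22, from 0.778 (Grik4) to 1.57 (Grin1). Both pairs of libraries were set side by side after the values were seen and carry no test, and the part of astrocyte RNA was not tested. Other pairs with like medium spiny neuron medians set these genes less apart. In RES replicate 3 and SUS replicate 3 (2.79 and 2.89) Grin2c was 3.85 against 7.46 and Grm3 5.97 against 8.81. Homer1 was 1.81 against 3.2 there. In naive replicates 2 and 3 (7.82 and 7.65) Grm3 was 22.4 against 26.1, Grin2c 12.9 against 17.4 and Grik2 3.86 against 4.86. Of the 3 promoter windows printed above, all held a GC box and 0 held TATAAA or TGACG.

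Group comparisons used edgeR on all 39210 genes past the filter, with p-values adjusted over all of them. In the comparison of RES with naive, edgeR called 0 of the 36 genes and 0 (0%) of all genes. At an unadjusted p under 0.05 it counted 0 of the 36 and 361 of all, and DESeq2 and limma-voom also called 0. Of the 36 log2 fold changes, 15 were above 0 and 21 below, with a median of -0.08 beside -0.02 over all genes tested. Over genes of at least 10 CPM (counts scaled to library size), as most of the 36 are, the median was -0.07, with 5251 above 0 and 9192 below. The 36 genes were thus close to genes of like level here. The 4 AMPA subunit genes all had values above 0, with a median of 0.20, and the 10 scaffold genes a median of -0.16 with 3 above 0. The values ran from -0.39 (Grin2c) to 0.36 (Grik2). In 0 of the 36 did the RES and naive libraries fail to overlap, against 6.13% of all genes tested. Without RES replicate 3 the median was 0.14, with 30 genes above 0, and without RES replicate 2 it was -0.31. The direction of the median thus rested on single libraries.

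The 3 genes with the smallest p in that comparison were all near background. Homer3 had 10.3, 13.3 and 9.53 CPM (counts scaled to library size) in naive and 7.71, 12.0 and 7.41 in RES, a log2 fold change of -0.28 (SE 0.267, edgeR adjusted p = 1). Homer2 had 22.4, 22.7 and 25.8 CPM in naive and 31.5, 24.9 and 25.9 in RES, and its log2 fold change was 0.21 (SE 0.220, edgeR adjusted p = 1). Grm6 had 14.9, 12.1 and 11.6 CPM in naive and 13.8, 12.9 and 17.2 in RES, and its log2 fold change was 0.19 (SE 0.226, edgeR adjusted p = 1). The groups overlapped in each of them. Of the genes above background, Gria1 had 266 ± 83.7 CPM (SD, n = 3) in naive and 277 ± 140 in RES.

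In the comparison of SUS with naive, edgeR again called 0 of the 36 genes and 0% of all genes, as did DESeq2 and limma-voom. At an unadjusted p under 0.05 edgeR counted 1 of the 36, Grin2d, and 1225 of all. Of the 36 values 9 were above 0 and 27 below, with a median of -0.18 beside 0.02 over all genes. Over genes of at least 10 CPM the median was 0.04, with 8066 above 0 and 6377 below. All 4 group III receptor genes and both CaMKII genes had values below 0, with medians of -0.32 and -0.35. Of 7 NMDA subunit genes 5 were below 0, with a median of -0.46. The lowest value was that of Dlgap2, -0.58 (SE 0.509, edgeR adjusted p = 1), from 105, 219 and 157 CPM in naive and 97.5, 181 and 43.9 in SUS. Leaving out SUS replicate 2 moved this value to -1.18, leaving out SUS replicate 3 to -0.20 and leaving out naive replicate 2 to -0.29. Without SUS replicate 2 the list median was -0.52, with 6 of the 36 at an unadjusted p under 0.05 and 0 of 40455 genes called. The count of all genes under that p was not taken for this fit, so the 6 cannot be set against a share. Without SUS replicate 3 the list median was 0.02 with 18 genes on each side.

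Grin2d was the only one of the 36 genes whose SUS libraries did not overlap the naive ones, where 8% of all genes tested did not overlap. It had 21.1, 19.0 and 22.8 CPM for naive, 23.0, 20.4 and 17.6 for RES and 15.9, 16.2 and 12.6 for SUS. In scaled CPM all 3 SUS libraries were therefore below all 6 others. As levels it stood at 1.45, 1.55 and 1.74 times background for naive, 1.56, 1.78 and 1.15 for RES and 1.23, 1.22 and 0.837 for SUS, where RES replicate 3 lay below 2 of the SUS libraries, so that on this scale SUS and RES overlapped. The log2 fold change of SUS against naive was -0.50 (SE 0.218, 95% interval -0.96 to -0.03, edgeR adjusted p = 1). Against RES it was -0.44 (SE 0.219, edgeR adjusted p = 0.87). These values rest on 63 to 246 counts per library and on a level of 0.837 to 1.78 times background, and 9.66% of its exonic bases lie across from Gm45441. Grin3b, a GluN3 gene near background, had 9.87, 8.16 and 11.7 CPM in naive and 7.36, 10.8 and 3.63 in SUS, a log2 fold change of -0.47 (SE 0.314, edgeR adjusted p = 1) with overlap.

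In the comparison of SUS with RES, edgeR called 0 of the 36 genes and 0% of all, DESeq2 and limma-voom called 0, and edgeR counted 0 of the 36 and 2227 of all at an unadjusted p under 0.05. Here 4 values were above 0 and 32 below, with a median of -0.17 beside 0.01 over all genes. Over genes of at least 10 CPM the median was 0.06, with 8471 above 0 and 5972 below. Grin2d alone of the 36 did not overlap, against 7.63% of all genes. The 24 genes above background included 1 with a value above 0, Homer1 at 0.11. Grm6 had 13.8, 12.9 and 17.2 CPM in RES and 10.7, 13.3 and 10.0 in SUS, a log2 fold change of -0.37 (SE 0.224, edgeR adjusted p = 0.887). Grm8 had 34.5, 43.2 and 35.6 CPM in RES and 26.5, 37.5 and 28.9 in SUS, a log2 fold change of -0.29 (SE 0.243, edgeR adjusted p = 0.943). Deviations from the group means in same-numbered RES and SUS libraries correlated at 0.439, 0.413 and 0.119 across genes. Differently numbered RES and SUS libraries ran from -0.533 (RES 1 with SUS 2) to 0.343 (RES 1 with SUS 3). Of the SUS libraries, the same-numbered one correlated best with each RES library. SUS 3, however, correlated more with RES 1 (0.343) than with RES 3 (0.119). Naive replicate 3 and SUS replicate 2 correlated at 0.662, so high values also arose between different numbers. Whether RES and SUS libraries were paired cannot be told from these values. No label states a pairing. The comparison was also fitted on these 6 libraries with the replicate number as a block, an alternative chosen after the data were seen. There edgeR called 0 of the 36 genes, with 0 at an unadjusted p under 0.05, a median of -0.23, 6 above 0 and 30 below. Within the same-numbered pairs the median difference of the 36 genes in log2 CPM, SUS minus RES, was -0.379, -0.0349 and -0.178, with 30, 21 and 25 genes lower in SUS. In the model without the block, the count turned with single libraries. Without RES replicate 2 the median was 0.14 with 25 genes above 0, without SUS replicate 3 it was 0.03 with 23 above 0, and without SUS replicate 2 it was -0.60.

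Marker lists moved in the same comparison. All 12 microglial markers had values above 0 in SUS against RES, with a median of 2.37, and their summed level ran from 109 to 1942 CPM in RES and from 261 to 6225 in SUS. The 12 astrocyte markers had a median of -0.28 with 10 below 0, and sums of 964 to 4766 CPM in RES and 1856 to 2776 in SUS. The 15 medium spiny neuron markers had a median of -0.10 with 11 below 0, and sums of 665 to 2332 CPM in RES and 644 to 2307 in SUS. Summed over the 36 genes the range was 2102 to 5600 CPM in RES, 1945 to 5320 in SUS and 2813 to 4622 in naive. The 8 oligodendrocyte markers all had values above 0, with a median of 1.14 and sums of 234 to 727 CPM in RES and 487 to 2112 in SUS. Of 8 endothelial markers 7 were above 0, with a median of 0.44 and sums of 144 to 226 CPM in RES and 200 to 345 in SUS. Of 10 pan-neuronal markers 8 were below 0, with a median of -0.17 and sums of 464 to 1176 CPM in RES and 470 to 1154 in SUS. At an unadjusted p under 0.05 edgeR counted 7 of the microglial, 5 of the oligodendrocyte, 1 of the endothelial and 1 of the pan-neuronal markers. It counted 0 of the astrocyte and medium spiny neuron markers and 2227 of 39210 genes tested. It also counted 1 of 10 cholinergic markers and 4 of 48 tested genes of other tissues, a list near background. Of 7 oligodendrocyte precursor markers 6 were above 0, with a median of 0.22, and 0 were counted. Against naive, whose microglial sums ran from 299 to 3560 CPM, all 12 microglial markers were below 0 in RES (median -1.42) and above 0 in SUS (median 0.90). The 8 oligodendrocyte markers, with sums of 345 to 1340 CPM in naive, did likewise, with medians of -0.72 and 0.46. The defining markers Cx3cr1, Slc1a2 and Ppp1r1b had counts above 0 in every library. The part of these cell types in the values of the 36 genes was not tested.

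With the 6 cocaine libraries of RES and SUS pooled as 1 group and set against naive, edgeR called 0 of the 36 genes and 0% of all, as did DESeq2 and limma-voom, with 0 of the 36 and 541 of all at an unadjusted p under 0.05. There 12 values were above 0 and 24 below, with a median of -0.14 beside 0.01 over all genes. Over genes of at least 10 CPM the median was -0.005, with 7021 above 0 and 7422 below. In 0 of the 36 did the groups fail to overlap, against 1.17% of all genes. Grin2c had the lowest value, -0.44 (SE 0.395, edgeR adjusted p = 1), from 96.0, 119 and 172 CPM for naive, 66.3, 186 and 44.5 for RES and 125, 65.2 and 84.8 for SUS. Omitting RES replicate 2 moved it to -0.74, omitting naive replicate 3 to -0.18 and omitting RES replicate 3 to -0.30. Grin2d had -0.26 and Grin3b -0.30. The values of RES and of SUS against naive share the same 3 naive libraries.

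**Figure D3:**
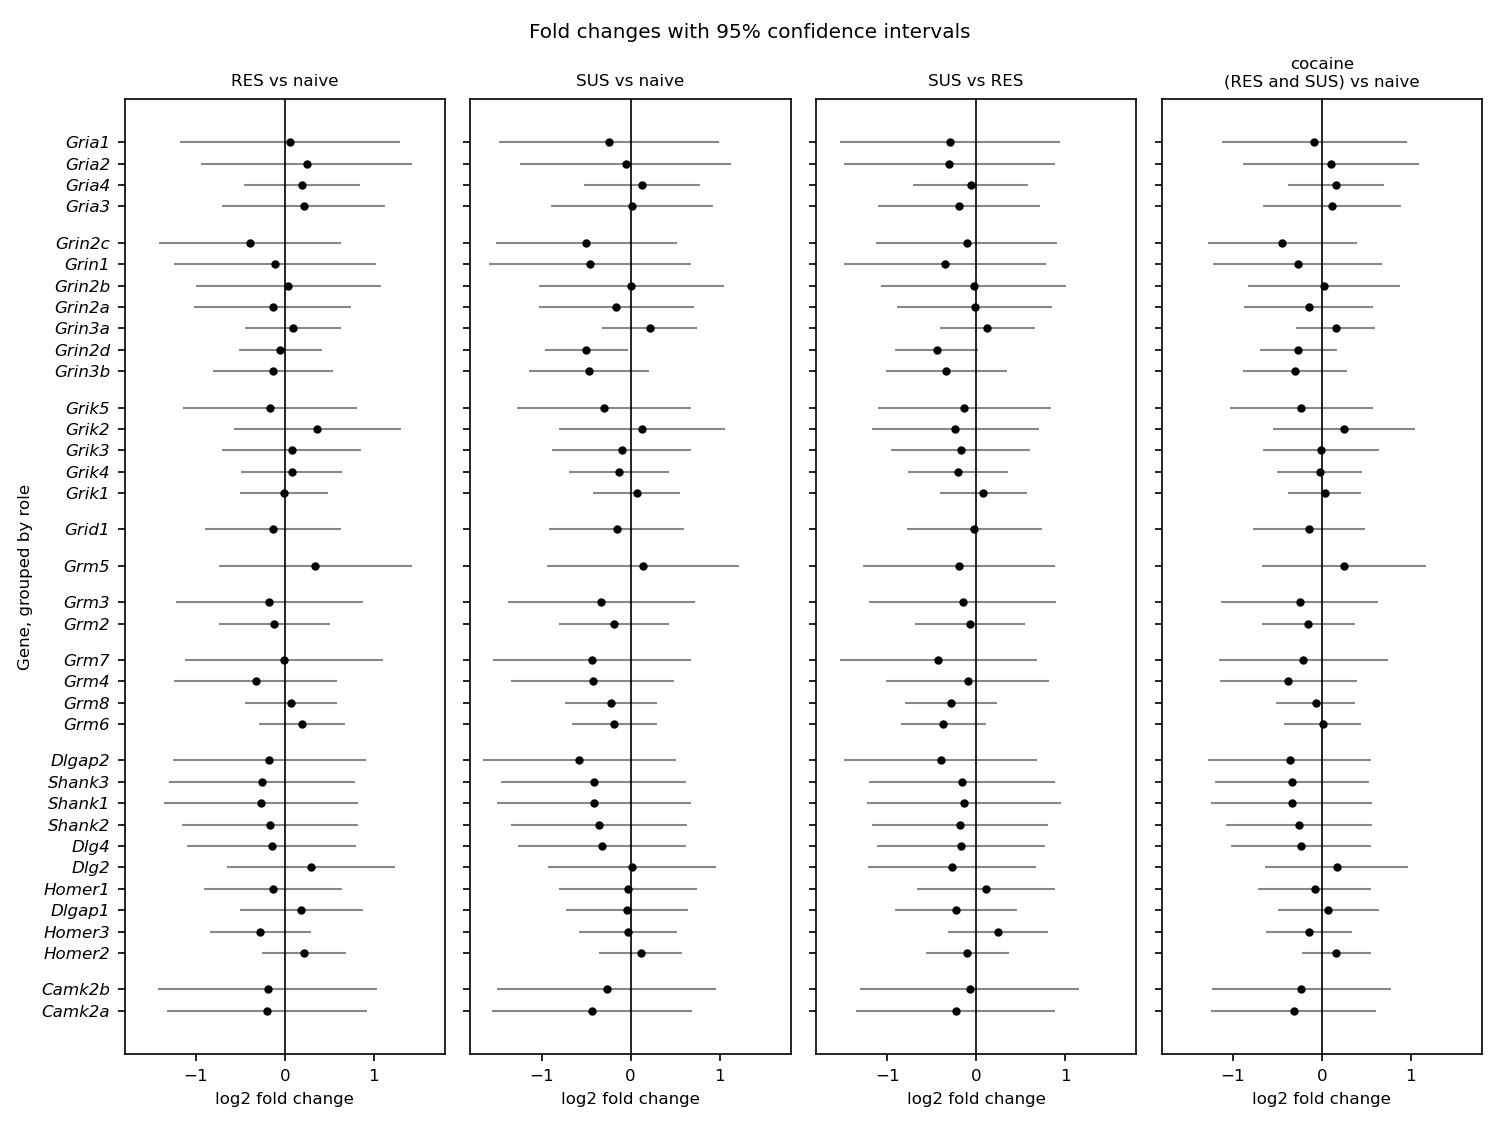
log2 fold changes of the 36 genes in 4 comparisons, with 95% confidence intervals from edgeR. The interval of Grin2d in SUS against naive is the only one of the plot that does not cover 0, and 17 to 21 of 36 intervals per comparison reach 1 or -1.

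The spread among libraries set the precision. The SD of log2 CPM within groups had a median of 0.639 over the 36 genes (0.125 for Homer2 to 0.932 for Gria1), against 0.409 over all genes tested and 0.330 over those of at least 10 CPM. The SE of the log2 fold change had a median of 0.435 for RES against naive, 0.434 for both comparisons of SUS and 0.367 for cocaine against naive. The 95% interval reached 1 log2 unit up or down in 21, 20, 21 and 17 of the 36 genes in the 4 comparisons, in the order of the panels of the plot of fold changes. A difference of that size was not excluded in those genes by their intervals, and the absence of calls does not show that the groups were alike.

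Ratios between genes of a library do not depend on its scaling. Gria1 over Gria2, which bears on the calcium permeability of AMPA receptors, was 2.12, 2.58 and 1.77 for naive, 2.28, 1.58 and 2.25 for RES and 1.73, 2.28 and 1.09 for SUS. Grin2a over Grin2b, a ratio known to climb as synapses mature, was 0.722, 0.754 and 0.576 for naive, 0.598, 0.567 and 0.662 for RES and 0.589, 0.574 and 0.691 for SUS. The 3 groups overlapped in both. Grm5 over Grm3 was 0.269, 0.265 and 0.261 for naive, 0.455, 0.322 and 0.492 for RES and 0.176, 0.604 and 0.330 for SUS. All 3 RES values of this ratio were above the naive ones, while SUS spanned a wider range than both. Its log2 difference between RES and naive was 0.65, with p = 0.1 by a two-sided exact permutation test, the smallest that 3 against 3 libraries can give, and 0.84 after adjustment over the 24 tests of 6 ratios in 4 comparisons.

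Camk2a over Camk2b stayed within 0.658 to 0.863 in the 9 libraries, and Shank3 over Shank2 within 1.14 to 1.70. Dlg4 over Dlg2 was 1.17, 1.69 and 1.02 for naive, 1.10, 0.916 and 0.715 for RES and 1.24, 0.901 and 0.952 for SUS. Its log2 difference was -0.50 for RES against naive (exact permutation p = 0.2, adjusted 0.84) and -0.40 for cocaine against naive (exact permutation p = 0.119, adjusted 0.84). None of the 24 tests had an adjusted p under 0.84.

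**Figure D4:**
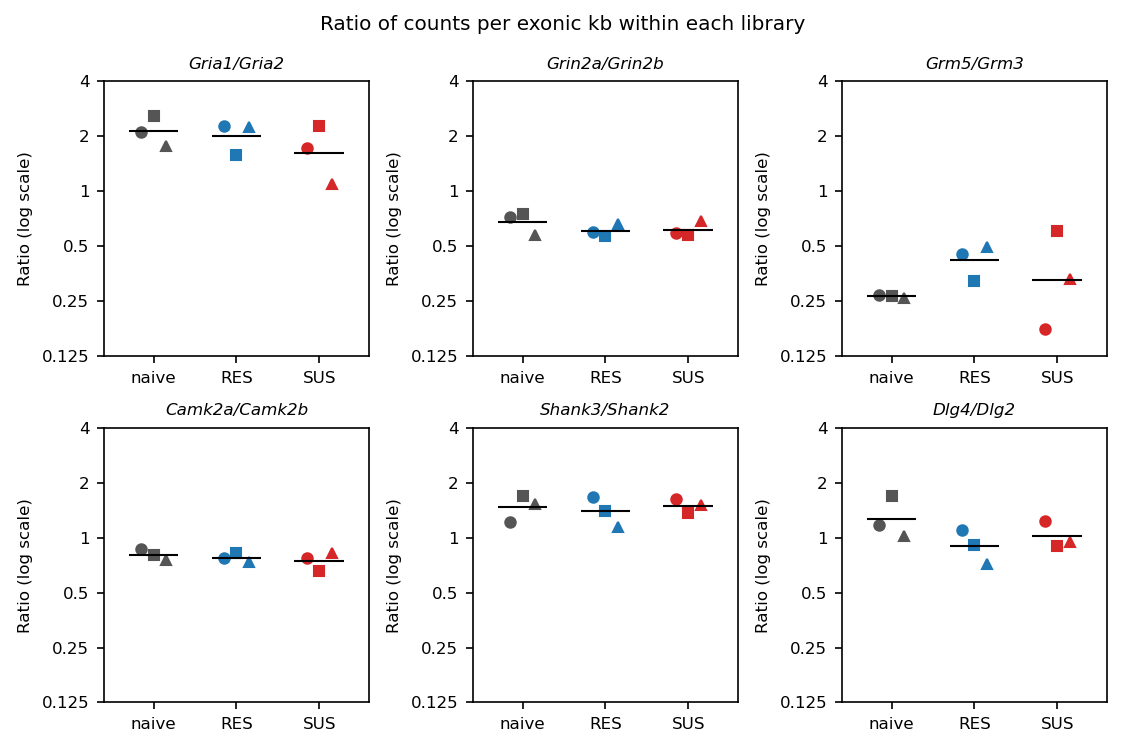
Ratio of counts per exonic kb of 6 pairs of genes in each library, on a log axis, by group, with circle, square and triangle for replicates 1, 2 and 3 and a line at the mean of the log2 ratios. For Grm5/Grm3 the naive libraries sit at 0.261 to 0.269, below all 3 RES libraries.

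Fold changes of the 36 genes followed the GC content of their transcripts when cocaine groups were set against naive. Spearman's rho between log2 fold change and GC content across the 36 genes was -0.70 when RES was set against naive, -0.74 for SUS and naive and -0.06 for SUS and RES. Over 13034 protein-coding genes of at least 10 CPM the same rho was -0.23, -0.27 and -0.10. The length of the gene on the chromosome (gene span) also went with the fold changes. Its rho in the same order was 0.45, 0.38 and -0.11 across the 36 genes. Over the 13034 genes it was 0.14, -0.08 and -0.13. GC content and gene span were not separated. Genes are not independent replicates, and all points of a comparison share the same libraries. RES against naive and SUS against naive also share the naive ones. The relation with GC content was noticed in the data, and neither relation carries a test.

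Set apart at 18 genes each, the genes of 53.3% to 65.6% GC, among them Grin2c, Shank3, Shank1 and Grin2d, had 0 values above 0 and a median of -0.38 in SUS against naive. The genes of 41.3% to 51.7% GC, among them Gria2, Grik2, Dlg2 and Grm5, had 9 above 0 and a median of -0.01. In RES against naive the medians were -0.17 with 3 above 0 and 0.08 with 12 above 0. In SUS against RES both sets had a median of -0.17. Per library, the mean deviation in log2 CPM of the GC-rich set minus that of the GC-poor set was 0.141, 0.202 and 0.202 for naive, -0.107, -0.0965 and 0.0619 for RES and -0.00349, -0.0605 and -0.339 for SUS. For the 36 genes the 3 naive libraries were above all 6 others. Over the protein-coding genes of at least 10 CPM the same difference was 0.0117, 0.11 and 0.0979 for naive, -0.109, 0.0757 and -0.0361 for RES and -0.0504, 0.0532 and -0.154 for SUS, and there the naive libraries overlapped the others. Fold changes were also taken relative to a smooth curve on GC content over protein-coding genes, an alternative chosen after the data were seen. The median of the 36 was then 0.05 with 22 above 0 when RES was set against naive. It was -0.18 with 6 above 0 for SUS and naive and -0.23 with 2 above 0 for SUS and RES. Spearman's rho with GC content across the 36 genes was then -0.45, -0.38 and 0.14. What set the relation with GC content was not tested.

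**Figure D5:**
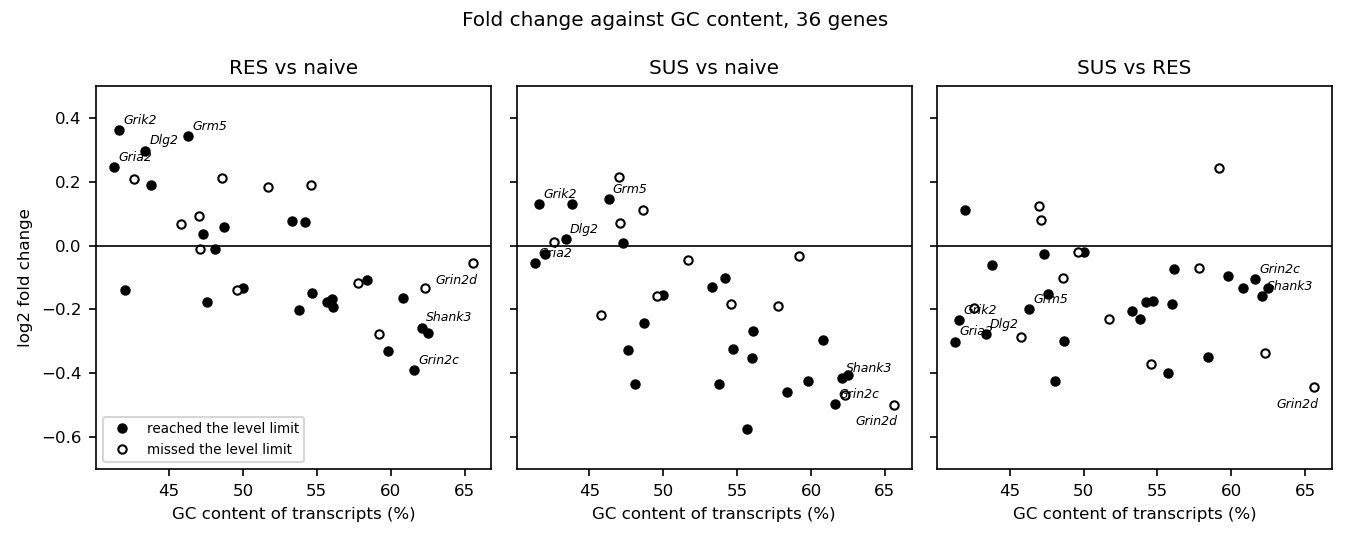
log2 fold change of the 36 genes against the GC content of their transcripts in 3 comparisons, with filled points for the 24 genes that exceeded 3 times background in at least 5 of the 9 libraries (the level limit) and open points for the other 12. Points slope down from left to right in the left and middle panels (rho -0.70 and -0.74) and not in the right one (rho -0.06).

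Another 35 genes of the excitatory synapse, for auxiliary subunits, trafficking and signalling proteins, were listed by name and fitted in the same way. edgeR called 0 of them in each comparison. The counts over genes of at least 10 CPM, given with each comparison above, serve beside the counts below too. Their values were above 0 for 11 and below for 24 in RES against naive, 6 and 29 in SUS against naive, 9 and 26 in SUS against RES and 5 and 30 in cocaine against naive, with medians of -0.12, -0.21, -0.12 and -0.14. Akap5, which anchors kinases and phosphatases at AMPA receptors, had 261 CPM on average in naive and 162 in SUS, a log2 fold change of -0.69 (SE 0.556, edgeR adjusted p = 1). Cacng8, an AMPA receptor auxiliary subunit, had 28.4 and 19.2 CPM and a value of -0.55 (SE 0.379, edgeR adjusted p = 1). Dlgap3, a scaffold gene of the striatum, had -0.47 in cocaine against naive and -0.42 in RES against naive. Camk2d, another CaMKII subunit, had -0.30 in RES against naive and 0.42 in SUS against RES, where Grip1, which binds GluA2, had -0.35. None of these passed the test.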

How the data were processed

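RNA of sorted accumbens cells was sequenced in 9 libraries, 3 each of naive, RES and SUS. The authors deposited 1 table of raw counts per Ensembl gene, whole numbers with no scaling. The submitters' processing notes list the build GRCm38 and the tools STAR 2.5.2b, HTSeq, FastQC, DESeq and DESeq2. Their order, settings, strand setting and annotation release, and the library kit, are not given in the sources used here. Of 52636 rows, 52489 matched GENCODE mouse release M21, which gave symbols, positions on GRCm38 and merged exon lengths. Promoter windows came from RefSeq (GRCm38.p6).

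Counts were filtered with filterByExpr, scaled by TMM (trimmed mean of M values, with factors of 0.743 to 1.58) and tested with edgeR 4.0.16 (limma 3.58.1, R 4.3.3) by the quasi-likelihood F test with Benjamini-Hochberg adjustment over 39210 genes at 0.05. A model with 3 groups gave the pairwise comparisons, and one with 2 groups gave cocaine against naive. CPM values are TMM-scaled. The SE is the size of the fold change over the root of F. Mitochondrial genes took 9.09% to 28.7% of counts. Ratios were taken with 0.5 counts added and tested with two-sided exact permutation tests (scipy 1.17.1). The pipeline was tested on simulated data. Across genes, deviations from the group means of same-numbered libraries correlated at 0.439, 0.413 and 0.119 for RES with SUS, at 0.00222 to 0.0725 for RES with naive and at -0.488 to 0.0318 for SUS with naive. Libraries of different groups with different numbers correlated from -0.653 (naive 1 with RES 2) to 0.662 (naive 3 with SUS 2). Among the SUS libraries, each RES library correlated best with the one of its number, while SUS 3 correlated more with RES 1. No label states a pairing, and a pairing of RES with SUS cannot be told from these values. The replicate number served as a block in alternatives only. Alternatives were DESeq2 1.42.0, limma-voom with sample weights, upper quartile scaling, mitochondrial genes left out, no filter, a replicate block, leaving out each library, other background limits and floors, and 3 chosen after the data were seen, the longest transcript as length, a GC curve and a fit of the RES and SUS libraries alone with and without the block.

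Genes given in full were, per comparison, the 3 with the smallest p, the 6 with the highest mean level and both genes of each ratio, and of the 35 other synapse genes the 2 with the smallest p per comparison. The 36 genes, the lists and the tests were chosen with earlier results of these data known.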

Additional observations from a re-analysis of the deposited data

Results flagged for a closer look

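In the 6 libraries of RES and SUS, each gene's log2 CPM and each ratio (42 values in all) was checked for a library far from the other 5, by the gap to its nearest neighbour as a share of the whole range. Chance flags about 1 in 20 such groups, and 2 of 42 were found. Grin3b stood at a log2 CPM of 1.96 in SUS replicate 3, the lowest of the 6, in a gene near background with 30 counts in that library and 32.13% of its exonic bases across from Tmem259. Homer2 stood at a log2 CPM of 4.99 in RES replicate 1, the highest of the 6, at 1.13 times background.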

How the results depend on the processing

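In each of the 4 comparisons 0 of the 36 genes were called under every alternative that was run: DESeq2, upper quartile scaling, mitochondrial genes left out, no filter, limma-voom, the replicate block and each library left out. The median log2 fold change kept its sign under all alternatives but the omission of libraries and, for RES against naive, the GC curve. For RES against naive it was -0.013 with upper quartile scaling and -0.0071 by limma-voom, both with 18 genes on each side of 0. By limma-voom the other medians were -0.29 (SUS with naive), -0.35 (SUS with RES) and -0.076 (cocaine with naive). With a library left out it ran from -0.31 to 0.14 for RES against naive, from -0.52 to 0.02 for SUS against naive, from -0.60 to 0.14 for SUS against RES and from -0.27 to -0.03 for cocaine against naive. With the replicate block in the model of all 9 libraries the medians were -0.15, -0.23, -0.21 and -0.17, and the block changed no call. The smallest adjusted p over all genes was 0.0579, by DESeq2 for SUS against naive.

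The number of genes above background was 14 with 5 times background as the limit, 14 with the median of the genes of other tissues as floor, 27 with 2 times background and 29 per longest transcript. With background density subtracted, the log2 difference of Grin2a over Grin2b was -0.0184 for SUS against RES (0.0197 as reported) and that of Shank3 over Shank2 0.0701 for cocaine against naive (-0.0267 as reported). With a library left out, these log2 differences of ratios took both signs: for RES against naive Gria1/Gria2 (-0.220 to 0.0866) and Shank3/Shank2 (-0.219 to 0.0617), for SUS against naive Grm5/Grm3 (-0.14 to 0.75) and Shank3/Shank2 (-0.11 to 0.13), for SUS against RES Grin2a/Grin2b (-0.0634 to 0.0812), Grm5/Grm3 (-0.79 to 0.10), Camk2a/Camk2b (-0.124 to 0.0426) and Shank3/Shank2 (-0.0351 to 0.241), and for cocaine against naive Shank3/Shank2 (-0.165 to 0.0787). The cause was not tested. For the genes near background, depth and background limit what the counts can show.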
